A study of Mus musculus with 2 samples.

Results

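The Mir17-92 and Mir106b-25 clusters are sets of microRNA (miRNA) genes known for promoting cell proliferation. Small RNA of the gastrocnemius, the main calf muscle, was examined in female B6CASTF1/J mice at postnatal day 4. The cluster genes were taken by name, as the 6 genes of the Mir17-92 cluster (Mir17, Mir18, Mir19a, Mir20a, Mir19b-1 and Mir92-1) and the 3 of the Mir106b-25 cluster (Mir106b, Mir93 and Mir25). All 9 were found among the 2202 miRNA genes counted. B6CASTF1/J animals are hybrids of the C57BL/6J and CAST/EiJ strains, and each of the 2 libraries came from a separately numbered female, according to the labels. The animals formed 1 group, so no condition could be set against another. A whole muscle holds fibres, myoblasts, vessels, connective tissue and blood, and in such a sample a smaller share of one cell type and less RNA per cell cannot be told apart.

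Each cluster is transcribed as 1 long precursor from which several hairpins are cut, so its genes start from a shared transcript. The Mir17-92 precursor is a classical target of the Myc and E2F transcription factors, and its mature miRNAs repress inhibitors of the cell cycle and of survival, such as Cdkn1a and the death-promoting gene Bcl2l11. The Mir106b-25 cluster is carried by Mcm7, which encodes a subunit of the helicase that opens DNA for replication. In cultured myoblasts, members of these families are associated with proliferation, and their levels fall as the cells differentiate. A miRNA recognises its targets mainly through its seed, which is bases 2 to 8 counted from the 5′ end.

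The 9 genes make use of 4 seeds, and their levels are described by seed. The guide strand of each hairpin (the strand known to be loaded for repression) is shown with its seed in capitals, from RefSeq on GRCm38.p6, so that members that share a seed can be compared. The miR-17 seed is carried by 4 members, of which the first pair comes from Mir17-92 and the second from Mir106b-25.
miR-17-5p: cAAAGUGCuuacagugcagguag
miR-20a-5p: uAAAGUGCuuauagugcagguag
miR-106b-5p: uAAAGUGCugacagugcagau
miR-93-5p: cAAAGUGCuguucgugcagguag
The miR-18 seed has 1 member, whose seed departs from the miR-17 seed at a single base.
miR-18a-5p: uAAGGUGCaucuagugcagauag
The miR-19 seed has 2 members, both in Mir17-92.
miR-19a-3p: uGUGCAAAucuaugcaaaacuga
miR-19b-3p: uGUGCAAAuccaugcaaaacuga
The miR-92 seed has 1 member in each cluster, miR-92a-3p from Mir92-1 and miR-25-3p from Mir25.
miR-92a-3p: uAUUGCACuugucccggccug
miR-25-3p: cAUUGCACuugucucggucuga

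Outside the seed the members of a group diverged to different degrees. With positions counted from 1 at the 5′ end and the first-named miRNA's base given first, miR-17-5p and miR-20a-5p differed at 2 of 23 bases, C1U and C12U. The guides of Mir17 and Mir93 differed at 4 of 23 bases, U10G, A11U, C12U and A13C. The guides of Mir19a and Mir19b-1 differed at 1 base, U11C. Those of Mir92-1 and Mir25 differed at 3 of the 21 bases compared, U1C, C14U and C18U. The GC content of the guides ran from 34.8% in miR-19a-3p to 57.1% in miR-92a-3p, with miR-17-5p at 47.8% and miR-93-5p at 52.2%. The guide of Mir20a and that of Mir19b-1 both had 39.1%.

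In mm10 the Mir17-92 hairpins lie on the plus strand of chromosome 14 within 836 bases, from 115043671 to 115044506. All 6 lie inside exon 2 of the long noncoding host transcript Mir17hg-201 in the GENCODE M21 annotation, in the order Mir17, Mir18, Mir19a, Mir20a, Mir19b-1 and Mir92-1. Mir17 (ENSMUSG00000065508.1) opens the cluster at 115043671 to 115043754, and Mir92-1 (ENSMUSG00000076062.1) closes it at 115044427 to 115044506. Mir19a (ENSMUSG00000065416.1) spans 115044000 to 115044081 and Mir19b-1 (ENSMUSG00000076256.1) spans 115044305 to 115044391. Mir18 is ENSMUSG00000065403.1 and Mir20a is ENSMUSG00000065442.1. The spaces between neighbouring hairpins run from 35 to 96 bases. The Mir106b-25 hairpins lie on the minus strand of chromosome 5 within 498 bases, from 138165321 to 138165818. In the direction of transcription, Mir106b comes first, then Mir93 and then Mir25, all within intron 13 of the coding transcript Mcm7-201. Their identifiers are ENSMUSG00000065514.1 for Mir106b, ENSMUSG00000065527.1 for Mir93 and ENSMUSG00000065394.1 for Mir25. Mir93 and Mir25 also fall inside exon 1 of a retained-intron transcript, Mcm7-202. Counts at either locus on the opposite strand came to 0 in both libraries.

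Library 1 held 10426665 reads and library 2 held 8487769, of which 5569392 and 4336759 fell in miRNA genes in the sense orientation. The counts are per hairpin gene, so the guide and the opposite arm of a hairpin were not separated. Levels are these sense counts scaled to 1000000 such reads (CPM), with the mean and SD taken across both libraries. Reads that match several places, 36.9% of library 1 and 37.6% of library 2, are listed on a line of their own and count for no gene. Detection required at least 2 CPM in each library, and 335 genes (15.2%) met it. The muscle marker Mir206 reached 124329 ± 7080 CPM (SD, n = 2), and 8 of 9 skeletal muscle markers were detected. Mir206 made up nearly all of the list's mean sum of 125850 CPM. Mir1a-1 (mean 2.2 CPM), Mir133a-1 (5.2 CPM) and Mir1a-2 (17 CPM) were low, and Mir133a-2 (0.41 CPM) was not detected. Whether reads of these low genes lie on the multimapping line was not tested. Since the labels give an RNA size range below 30 bases, shorter than any of these hairpins, CPM was not divided by hairpin length, and the order per kilobase of hairpin is given where it differs.

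Together the 9 genes held 0.643% ± 0.00397 of the assigned reads (SD, n = 2), with 35985 counts in library 1 and 27777 in library 2. Mir17-92 contributed 4325 ± 81.0 CPM and Mir106b-25 contributed 2108 ± 41.3 CPM. The count ratio of the first cluster to the second was 2.11 in library 1 and 2.00 in library 2. The larger cluster thus held 67.2% ± 0.844 of the counts of the 9 genes. Of the 9, 7 passed the detection threshold, and the 2 miR-19 genes, Mir19a and Mir19b-1, did not.

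**Figure D1:**
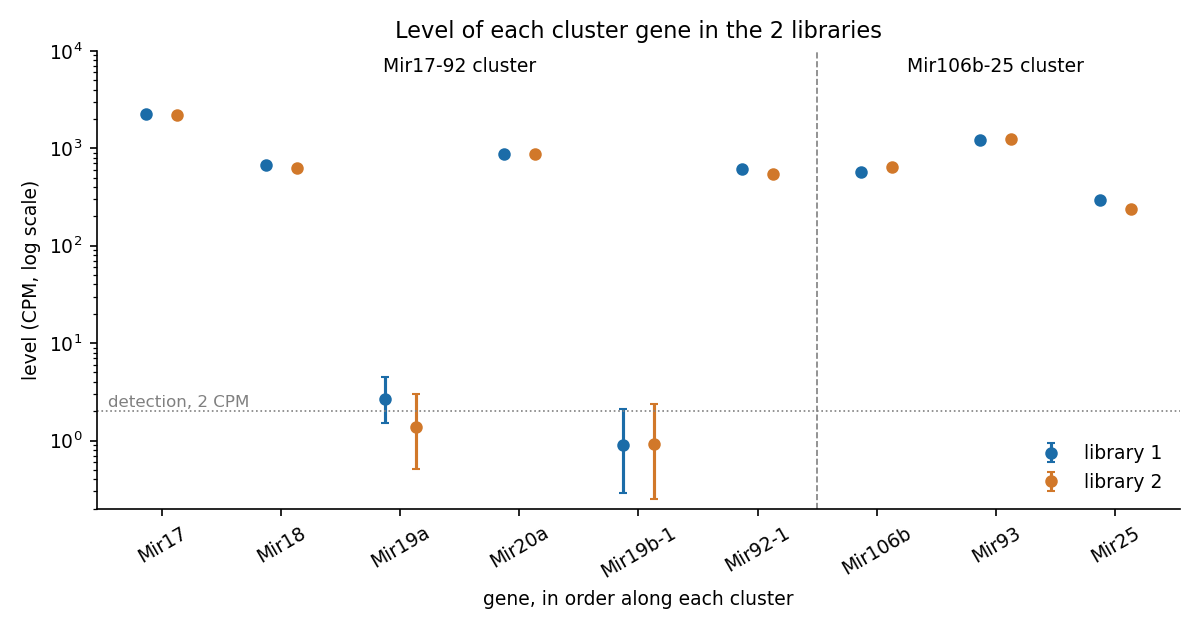
Level of each of the 9 genes in library 1 (left point) and library 2 (right point), in CPM on a log scale, with bars for the exact 95% counting interval of each library. The 7 detected genes lie between 240 and 2221 CPM in both libraries, and Mir19a and Mir19b-1 lie below 3 CPM.

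The 4 genes of the miR-17 seed carried most of the counted reads of both clusters. Mir17, the founding gene of its cluster, had 2221 CPM in library 1 and 2212 CPM in library 2. Its 2216 ± 6.27 CPM made it the highest of the 9, at rank 60 of all counted genes. Mir93, the middle gene of the Mcm7 cluster, had 1208 CPM in library 1 and 1254 CPM in library 2, and ranked 78. Mir20a, a close relative of Mir17 in the same cluster, had 875 and 881 CPM and ranked 88. Mir106b, the first hairpin of the Mcm7 cluster, had 573 and 642 CPM and ranked 100. These 4 genes accounted for 76.7% ± 1.71 of the counts of the 9 genes, of which the Mir17-92 pair summed to 3094 ± 1.86 CPM and the Mir106b-25 pair to 1839 ± 81.5 CPM. The guides of Mir92-1 and Mir19b-1, unlike those of these 4 genes, lie whole in another counted hairpin. Reads of exactly those guides count for no gene, so the shares by seed describe counted reads only.

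The miR-18 and miR-92 seeds followed with fewer counted reads. Mir18, the source of miR-18a, had 668 CPM in library 1 and 627 CPM in library 2. Mir92-1, whose product miR-92a is also known for its action in endothelial cells, had 616 and 546 CPM. Mir25, a gene studied for its action on the calcium pump of heart muscle, was the lowest detected member with 297 and 240 CPM. The miR-92 seed of both clusters together summed to 849.5 ± 89.8 CPM, or 13.2% ± 1.31 of the counts of the 9 genes, and Mir18 held 10.1% ± 0.384.

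The miR-19 seed had few counted reads in the same libraries. Mir19a, which is known as a driver of lymphoma in mice, had 15 counts in library 1 and 6 in library 2. That is 2.69 CPM (exact 95% counting interval 1.51 to 4.44) and 1.38 CPM (0.508 to 3.01). Mir19b-1 had 5 and 4 counts, or 0.898 CPM (0.292 to 2.10) and 0.922 CPM (0.251 to 2.36). Although Mir19a stands between Mir18 and Mir20a on the precursor, Mir17 had 825 times its count in library 1 and 1599 times in library 2. The labels name no molecular identifiers, so the intervals describe counting error and leave out amplification.

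**Figure D2:**
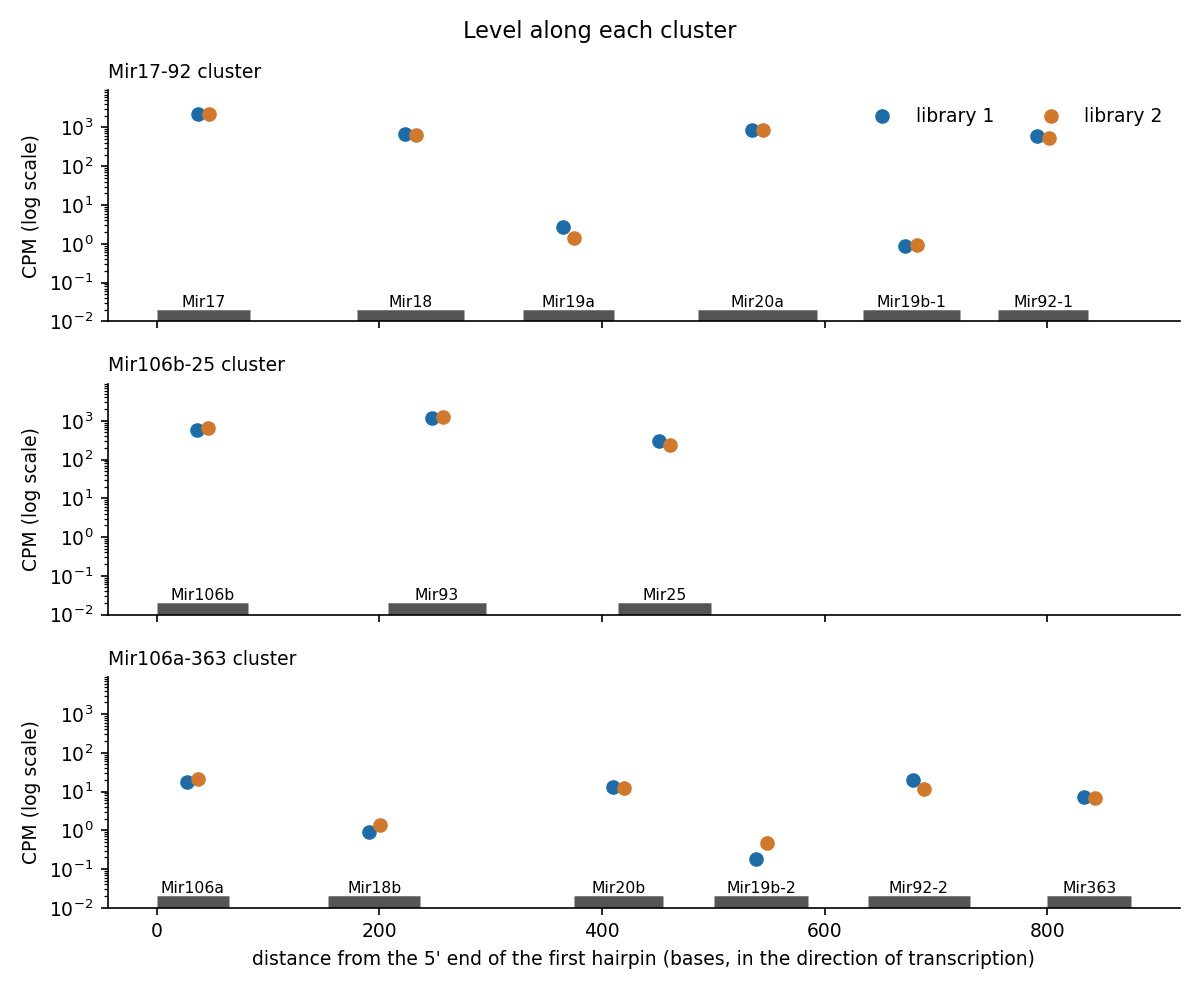
Level of each hairpin in library 1 and library 2 (CPM, log scale) against its distance from the 5′ end of the first hairpin, in bases along the direction of transcription, for both clusters and the X-linked Mir106a-363 cluster. Grey bars mark the hairpins. The low values at Mir19a and Mir19b-1 stand between neighbours at 546 to 881 CPM.

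The order of the detected members within each cluster was the same in both libraries, while the share of Mir25 and that of Mir106b in Mir106b-25 differed between them. Mir17 made up 50.7% of the Mir17-92 counts in library 1 and 51.8% in library 2, followed by Mir20a with 20.0% and 20.6%, Mir18 with 15.2% and 14.7%, and Mir92-1 with 14.1% and 12.8%. In Mir106b-25, Mir93 made up 58.1% and 58.7%, Mir106b 27.6% and 30.1%, and Mir25 14.3% and 11.2%. In neither cluster did the level follow the order along the precursor, since Mir93 in the middle of its cluster exceeded both of its neighbours and Mir20a exceeded Mir18 upstream of it.

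Ordered by mean CPM, the members ran Mir17, Mir93, Mir20a, Mir18, Mir106b, Mir92-1, Mir25, Mir19a and Mir19b-1. Mir17 was 1.80-fold above Mir93, Mir93 1.40-fold above Mir20a and Mir20a 1.36-fold above Mir18, and in each of these steps the ranges over the libraries did not overlap. The next steps, Mir18 to Mir106b and Mir106b to Mir92-1, were not separated, because the ranges overlapped and the order changed between the libraries. Mir25 lay 2.16-fold below Mir92-1 and 132-fold above Mir19a, without overlap. Mir19a and Mir19b-1 did not overlap by value, but their counting intervals did in both libraries. Per kilobase of hairpin, Mir106b and Mir92-1 came before Mir18, and the rest of the order was the same. The order is a description over 2 libraries, and no test was run between genes.

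Among the 335 detected genes, whose median level was 123 CPM, the 7 detected members ranked from percentile 57.9 for Mir25 to percentile 82.1 for Mir17. The detected genes outside the clusters that were nearest to Mir17 over the 2 libraries, by Euclidean distance of log2(CPM + 0.5), were Mir28a at 0.13, Mir134 at 0.22 and Mir125a at 0.23. Nearest to Mir93 were Mir361 at 0.03, Mir674 at 0.09 and Mir455 at 0.16. With 2 libraries this likeness is mostly one of level.

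**Figure D3:**
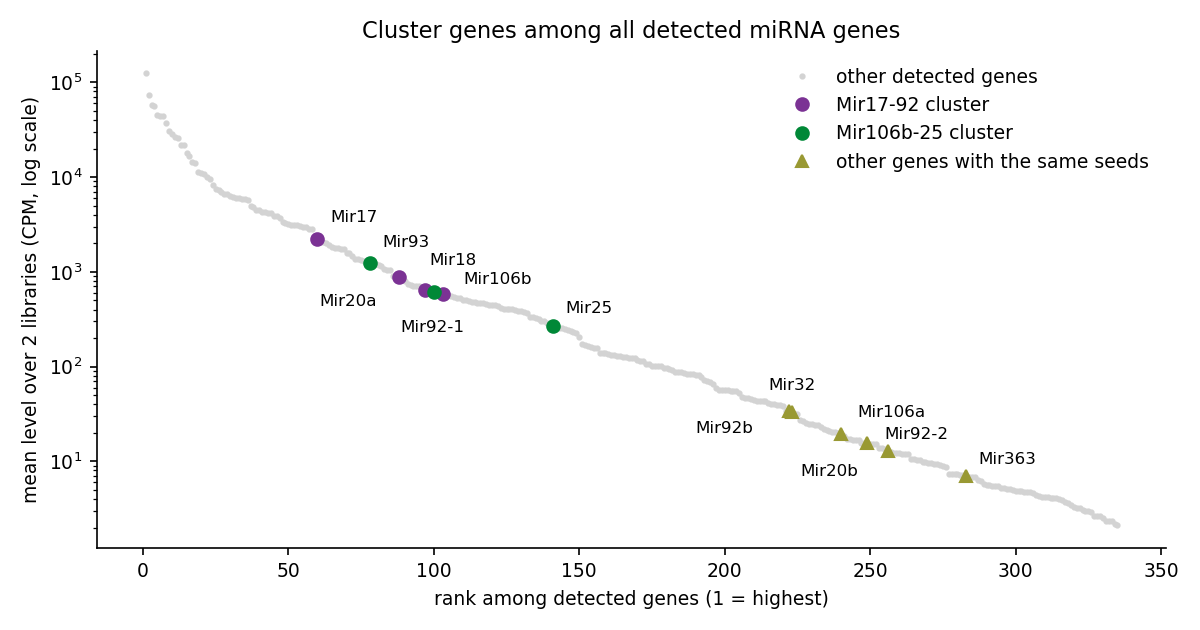
Mean level over the 2 libraries (CPM, log scale) of all 335 detected genes against their rank, with the detected members of both clusters and the other detected genes of the same seeds marked. The members lie between ranks 60 and 141, and the other genes of these seeds lie below them.

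A read that matches more than 1 place is not counted for a gene, and 2 of the 9 genes have a guide that occurs in another counted hairpin. The whole guide of Mir19b-1 also lies in Mir19b-2, and the whole guide of Mir92-1 also lies in Mir92-2, both in the X-linked Mir106a-363 cluster. The hairpins are printed with their longest shared stretch in capitals, to show where a read stops being ambiguous. The first pair shares 25 bases, which hold the 23-base guide.
Mir19b-1: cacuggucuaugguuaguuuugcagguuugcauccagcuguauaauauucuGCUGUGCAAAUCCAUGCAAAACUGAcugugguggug
Mir19b-2: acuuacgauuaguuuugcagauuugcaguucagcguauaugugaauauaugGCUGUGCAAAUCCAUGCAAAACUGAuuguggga
The second pair shares 22 bases, which hold the 21-base guide.
Mir92-1: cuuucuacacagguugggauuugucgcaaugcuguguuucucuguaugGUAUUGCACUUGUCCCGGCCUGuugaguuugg
Mir92-2: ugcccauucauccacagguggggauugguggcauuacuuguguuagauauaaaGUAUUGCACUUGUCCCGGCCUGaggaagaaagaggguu
In both pairs the stretch ends at the last base of the guide, so a read that runs 1 base further at its 3′ end matches a single hairpin of the pair.

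The counts of these genes differed by orders of magnitude. Mir92-1 had 3430 and 2367 counts, against 5 and 4 for Mir19b-1. Their X-linked partners had 109 and 49 counts (Mir92-2) and 1 and 2 counts (Mir19b-2). Mir19a shares no run of 14 bases or more with another counted hairpin, and no more than 12 bases of its guide recur in one. Its guide differs from that of Mir19b-1 by the single base given above. How many reads of the miR-19 and miR-92 guides are in the multimapping line was not tested, so the levels of Mir19a, Mir19b-1 and Mir92-1 describe counted reads only. Matches elsewhere in the genome were not searched.

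The remaining 4 members that share any run of 14 bases or more with another counted hairpin, Mir18, Mir20a, Mir106b and Mir25, share at most 17. Mir18 shares its 17 bases with its X-linked relative Mir18b, inside the guide, and Mir20a with Mir3966.

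The other genes with these seeds contributed little. RefSeq lists 10 further genes with a mature strand of one of the 4 seeds, all of them counted, and 6 were detected. The X-linked Mir106a-363 cluster, a paralog of Mir17-92 with the same seeds, had a sum of 59.3 CPM in library 1 and 53.0 CPM in library 2, so Mir17-92 exceeded it 74.0-fold and 80.5-fold in counts. Of its 6 genes, 4 were detected. Mir19b-2 and Mir92-2 share their whole guide with a member, as shown above, so these folds describe counted reads only. The guides of this cluster that differ from those above are printed for comparison. Within a seed, they run from 1 base apart for miR-106a-5p and miR-17-5p to 13 of 22 bases apart for miR-363-3p and miR-25-3p. The guides miR-363-3p and miR-92a-3p are 11 of 21 bases apart.
miR-106a-5p: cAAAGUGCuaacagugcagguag
miR-20b-5p: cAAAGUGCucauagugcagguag
miR-18b-5p: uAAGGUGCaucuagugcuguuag
miR-363-3p: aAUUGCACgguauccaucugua
Mir106a, whose guide differs from that of Mir17 only at U10A, was at 19.4 ± 1.98 CPM (SD, n = 2), and Mir17 had 124 times its count in library 1 and 107 times in library 2. Mir20b had 13.5 CPM in library 1 and 12.5 CPM in library 2. Mir92-2 was at 15.4 ± 5.85 CPM and Mir363 at 6.93 ± 0.350 CPM. The genes not detected were Mir18b, with 5 counts in library 1 and 6 in library 2, and Mir19b-2.

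In both Mir17-92 and its X-linked paralog the miR-19 genes had the lowest counts. Mir19b-1 and Mir19b-2 have the same guide, and a read of exactly that guide counts for neither. The clusters are therefore not separate cases here, and the shares describe counted reads only. Mir19b-2 held 0.303% of the Mir106a-363 counts in library 1 and 0.870% in library 2, from 1 and 2 counts. Mir19a and Mir19b-1 held 0.0615% and 0.0205% of the Mir17-92 counts in library 1, and 0.0324% and 0.0216% in library 2. Mir18b was also low, with 1.52% and 2.61% of its cluster, whereas Mir18 held 15.0% ± 0.383 of Mir17-92.

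Beyond the X-linked cluster, 4 genes carry one of the seeds, and 2 of these had counts, both with the miR-92 seed.
miR-92b-3p: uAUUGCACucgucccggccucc
miR-32-5p: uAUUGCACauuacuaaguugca
Mir32 was at 33.9 ± 4.54 CPM. Mir92b had 6.11 CPM in library 1 and 60.0 CPM in library 2, so its mean describes neither library. Mir367 and Mir6383 had a count of 0 in both libraries, which leaves room for 0.539 CPM (library 1) and 0.692 CPM (library 2). Of all counts of the miR-17 seed, the members of both clusters held 99.4% ± 0.0148 (SD, n = 2), and for the miR-18 seed 99.8% ± 0.0607. For the miR-92 seed the share was 93.5% in library 1 and 87.2% in library 2, the difference being mostly Mir92b. A read of exactly the guide shared by Mir92-1 and Mir92-2 matches both hairpins, so this share describes counted reads only.

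**Figure D4:**
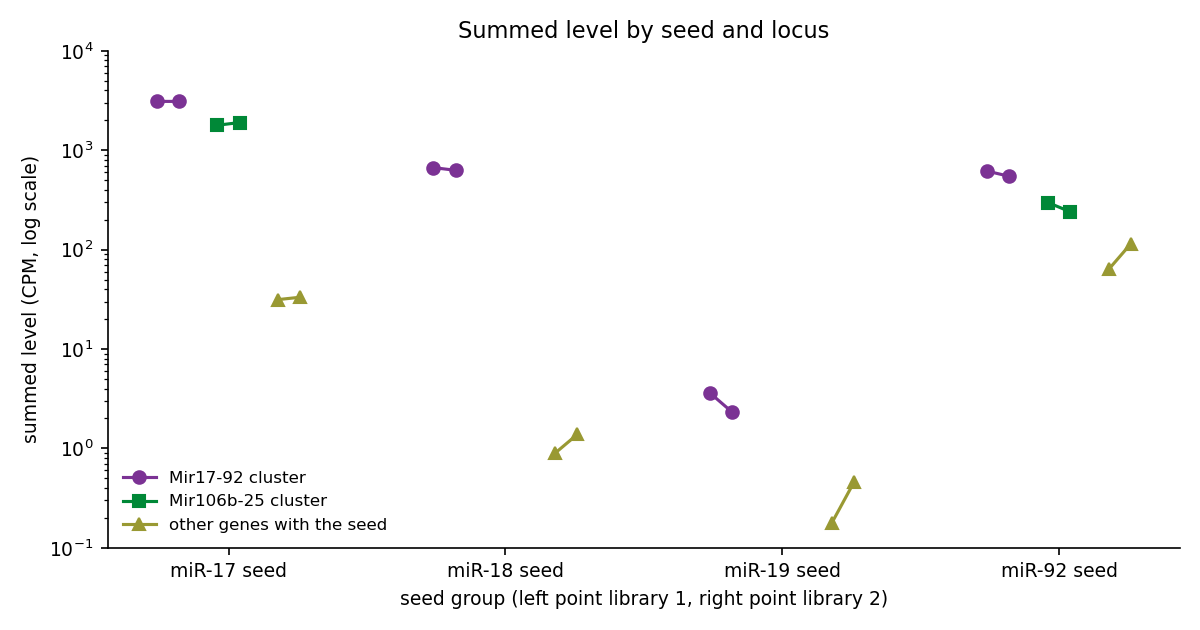
Summed level (CPM, log scale) of the genes of each seed in Mir17-92, in Mir106b-25 and in all other genes with that seed, with library 1 as the left and library 2 as the right point. The clusters' miR-17 seed genes are highest at 3094 and 1839 CPM on average, and the miR-19 seed of Mir17-92 is at 2.95 CPM.

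The detected members differed by less than 1.5-fold between the animals. Each gene's counts were compared between the libraries by an exact two-sided binomial test given the scaled library totals, with Benjamini-Hochberg adjustment over all 335 detected genes. It compares these 2 libraries beyond counting error and no conditions. By this test 186 of the 335 genes (55.5%) differed, and 4 of the 7 detected members did, a share close to that background. Of the members, 3 were higher in library 1, where 26.9% of all detected genes were, and 1 was higher in library 2, where 28.7% were. All 7 lay within 1.5-fold, as did 284 (84.8%) of all detected genes. Their median absolute log2 ratio was 0.11, beside 0.21 for all detected genes, which varied by 22% beyond counting (common coefficient of variation). These medians are not matched for level. The members all lay above the median level of the detected genes, and counting error widens ratios at low counts.

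The members called higher in library 1 were both miR-92 seed genes and Mir18. Mir25 had a log2 ratio of library 1 over library 2 of 0.33 (95% counting interval 0.22 to 0.44, binomial adjusted p = 2.15e-08). Mir92-1 had a log2 ratio of 0.20 (0.12 to 0.27, binomial adjusted p = 9.48e-07) and Mir18 one of 0.11 (0.04 to 0.18, binomial adjusted p = 0.00422). Mir106b was higher in library 2, with a log2 ratio of -0.14 (-0.22 to -0.07, binomial adjusted p = 0.000376). Mir17 at 0.03, Mir20a at 0.01 and Mir93 at -0.03 were not called, and the signs of Mir20a (plain totals) and Mir93 (the scaling named next) turned under another scaling. When scaling factors were drawn from every gene with a count instead of the detected ones, all log2 ratios moved up by 0.07. The count of members higher in library 1 then became 5 and that in library 2 became 0, since Mir17 and Mir20a gained a call and Mir106b lost it, while all genes then split into 117 and 74 against 90 and 96.

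Ratios of counts taken inside a library do not depend on scaling. In Mir106b-25, the count ratio of Mir25 to Mir93 was 0.246 in library 1 and 0.192 in library 2, a log2 difference of 0.36 (0.24 to 0.49). In Mir17-92, the count ratio of Mir92-1 to Mir20a was 0.704 and 0.620, a log2 difference of 0.18 (0.09 to 0.28). In both clusters the miR-92 seed gene was therefore higher in library 1 relative to a miR-17 seed gene of the same precursor. This was not particular to the miR-92 seed. The ratio of Mir18 to Mir20a also differed, by 0.10 (0.01 to 0.20) on the log2 scale, and that of Mir17 to Mir18 by -0.08 (-0.17 to -0.003). Among miR-17 seed genes of the same precursor, the ratio of Mir17 to Mir20a differed by 0.02 (-0.06 to 0.09) on the log2 scale, an interval that includes 0. That of Mir106b to Mir93 was 0.474 in library 1 and 0.512 in library 2, a log2 difference of -0.11 (-0.20 to -0.02). Between the clusters, that of Mir17 to Mir106b differed by 0.17 (0.09 to 0.25) and that of Mir17 to Mir93 by 0.06 (-0.01 to 0.12). Across the other miR-92 seed genes no single direction appeared. Mir92-2 was called higher in library 1 at 0.81 (0.32 to 1.33), Mir92b higher in library 2 at -3.27 (-3.83 to -2.75), and Mir32 at -0.25 and Mir363 at 0.13 were not called.

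**Figure D5:**
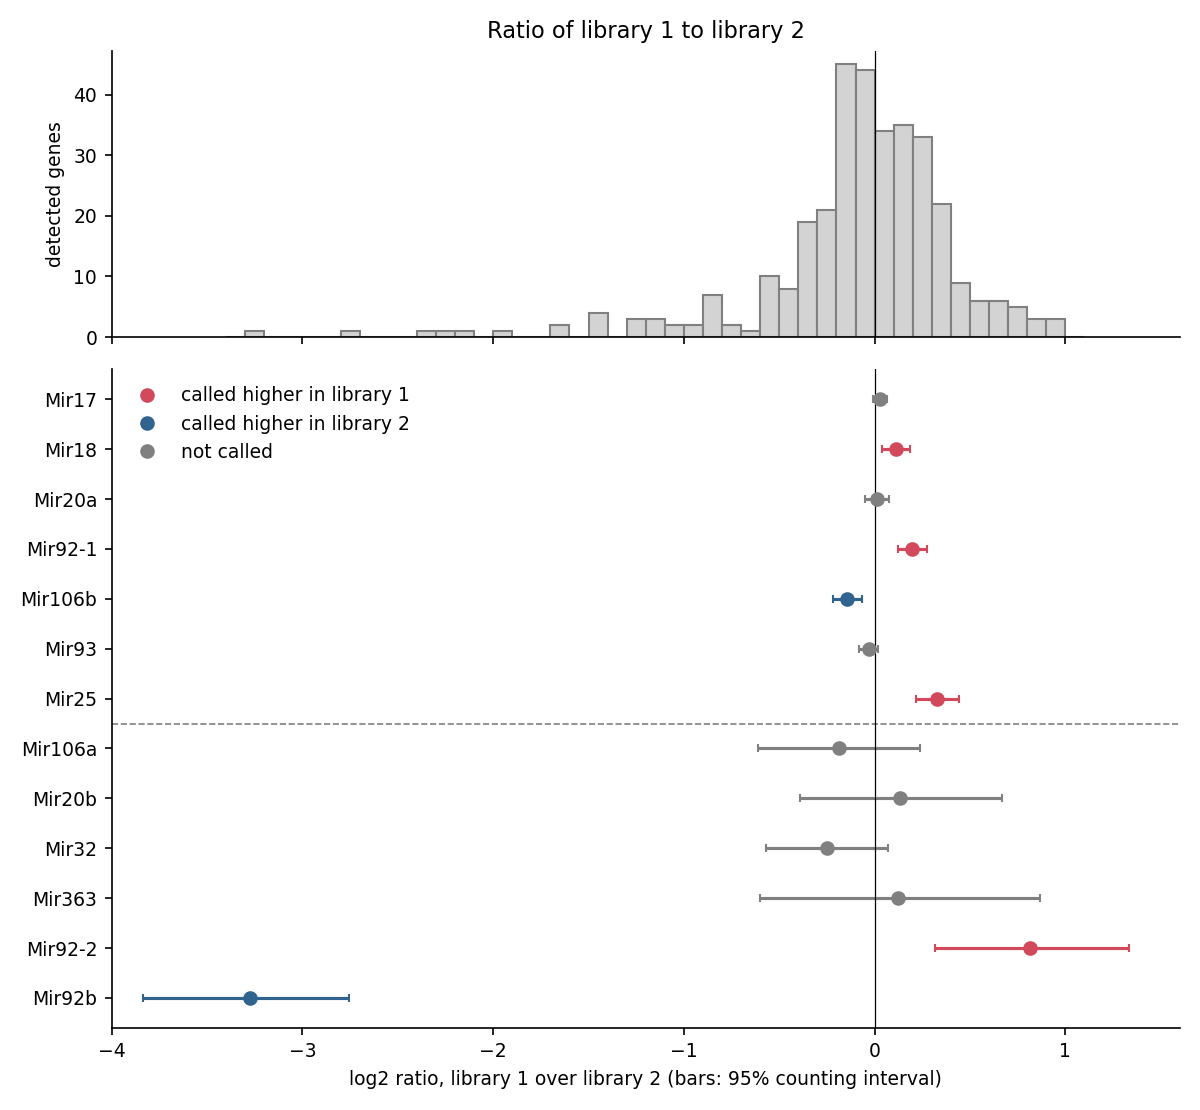
Top, number of detected genes by log2 ratio of library 1 over library 2 (335 genes, bins of 0.1). Bottom, the same ratio for the 7 detected members (above the dashed line) and the 6 other detected genes of their seeds, with 95% counting intervals and colours for the call. The members lie between -0.14 and 0.33, and Mir92b lies at -3.27.

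The libraries also differed in markers of other cell types. The leukocyte list had a sum of 1013 CPM in library 1 and 652 CPM in library 2, with 4 of its 6 genes called higher in library 1 (26.9% of all detected genes) and Mir146b at 0 counts in both. Endothelial Mir126a had 29519 CPM in library 1 and 21931 CPM in library 2. The erythroid list summed to 96.8 and 119 CPM, with Mir451a called higher in library 2 and Mir144 not called, and liver Mir122 had 169 and 824 CPM. The epithelial list summed to 299 and 411 CPM, with 5 of 8 genes called higher in library 2 (28.7% of all detected genes). The connective tissue list summed to 5418 CPM in library 1 against 4243 CPM in library 2, with 2 of 5 genes called higher in library 1. The smooth muscle list summed to 25509 and 29100 CPM, with Mir143 called higher in library 2 (log2 ratio -0.17) and Mir145a in library 1 (0.12). The neural list summed to 383 and 520 CPM, with Mir137 (-2.38) and Mir219a-2 (-1.61) called higher in library 2, Mir338 not called (0.10), and Mir124a-2, Mir124a-3 and Mir9-2 at 0. The part of these cells in the differences of Mir25, Mir92-1, Mir18 and Mir106b was not tested.

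The clusters held a minor part of the reads assigned to miRNA genes, and other miRNA groups tied to growth or to the cell cycle are set beside them. The Mir322-Mir503 cluster, whose miR-15/16 relatives are known to slow the cell cycle, summed to 33831 ± 1060 CPM, and the 9 genes had 0.195 times its count in library 1 and 0.185 times in library 2. The mir-23/27/24 clusters summed to 40970 ± 3772 CPM. The mir-15/16 family, which represses cyclins, had a sum of 2887 CPM in library 1 and 2029 CPM in library 2, so that the 9 genes had 2.24 and 3.16 times its count. All 6 of its genes were called higher in library 1, where 26.9% of all detected genes were, with a log2 ratio of the sum of 0.53 (0.49 to 0.57), while that of the 9 cluster genes was 0.03 (0.01 to 0.06). The difference between the sums, -0.50 (-0.54 to -0.45) on the log2 scale for the 9 genes relative to the mir-15/16 family, exceeded counting error. All these sums and their ratios describe counted reads only, since reads that match several places count for no gene. Shared stretches were not searched for the genes of the comparison groups, so how far this lowers their sums was not tested.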

How the data were processed

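The values are raw counts per miRNA gene, 1 table per library, as the authors deposited them. The build is mm10, per the labels, and the annotation GENCODE M21, per text that came with the tables. The aligner, the counter and their settings were not given in the sources used here. Of the 3 deposited count columns (unstranded, sense and antisense, judged by their sums), the sense column was used. The 4 lines that name no gene stayed out of library sizes and tests; besides multimapping reads they held unmapped reads (8.03% in library 1 and 9.26% in library 2) and reads in no feature (1.70% and 2.09%).

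All 2202 identifiers matched miRNA genes in GENCODE M21. Log2 ratios are of counts over library totals scaled by TMM factors from the 335 detected genes by edgeR 4.0.16 in R 4.3.3. Size factors from DESeq2 1.42.0 were an alternative. The square root of the common dispersion in edgeR gave the coefficient of variation. Ratio intervals are exact binomial or, for ratios inside a library, exact conditional, and level intervals exact Poisson, all at 95%. A count of 0 was given an upper limit of 3 counts. Calls use an adjusted p threshold of 0.05. Mature strands of all 9 genes matched RefSeq; shared stretches were searched on the same strand among counted hairpins in GENCODE transcripts, and 20 bases or more counted as shared. The test was tried on simulated data with counting error only. Those data held no further spread between animals, so the trial does not bear on calls made under such spread. Python 3.11.15, scipy 1.17.1 and matplotlib 3.10.9 were used.

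The members and gene lists were chosen with earlier results of these data known. Named genes were all members, all genes of the same seeds, the X-linked paralogs, the 3 genes nearest to the leading member of each cluster, the partner of a member's longest shared stretch, and defining markers. The comparison families were named as lists.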

Additional observations from a re-analysis of the deposited data

Results flagged for a closer look

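Reads that match several places made up 36.9% of library 1 and 37.6% of library 2. They lie outside the gene counts and are far above the limit of 3 counts. Which of these reads belong to the clusters is not given in the tables.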

How the results depend on the processing

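Shares depend on what they are set against. Counted without regard to strand, Mir17-92 held 0.493% and Mir106b-25 held 0.240% of gene counts, and of all reads they held 0.226% and 0.110%, while the members' own counts were the same in both strand settings. Without Mir19b-1 and Mir92-1, whose guides lie whole in another counted hairpin, Mir17-92 held 0.374%, its count ratio to Mir106b-25 was 1.78 and the miR-92 seed held 4.59% of the member counts. With a single library, Mir17-92 held from 0.427% to 0.438%, Mir106b-25 from 0.208% to 0.214%, and their ratio ran from 2.00 to 2.11. Of 42 alternative ratios of the 7 detected members that had a test, 36 kept direction and call. Of 21 with a pseudocount and no test, 18 kept direction. The pseudocount ratios start from plain totals and at these levels nearly repeat the plain-totals ratios, so they are not a separate check. The 36 include Mir93 with DESeq2 size factors, whose log2 ratio of -2.88e-15 has no direction in practice. Settings that change only which genes are tested leave each ratio as it is, so only the call could change there. With plain totals Mir20a turned to -0.0103 on the log2 scale, as it did with pseudocounts of 0.1 (-0.0103), 0.5 (-0.0102) and 5 CPM (-0.0102), and was not called in the setting with a test. With DESeq2 size factors Mir17 was called higher in library 1 at 0.06 (binomial adjusted p = 0.00523). An alternative chosen after seeing the data, TMM factors from all genes with a count, gave 5 members higher in library 1 and 0 in library 2, where each of the other settings gave 1. There Mir93 turned to 0.0382 without a call, and Mir106b at -0.07 lost its call (binomial adjusted p = 0.0896). All detected genes split into 105 higher in library 1 and 81 in library 2 with DESeq2 size factors. No cause of these changes was tested beyond the shift of scale. At a minimum of 24 bases, 1 member (Mir19b-1) shares a stretch, against 2 at 18 or 20. No paired analysis was possible because the series has 1 group. Mir19a and Mir19b-1 had counts of 4 to 15, which leave wide intervals.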
